A study of Homo sapiens with 18 samples.

Results

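The MYC and MAX network was followed through 10 genes in 3 leukemia cell lines: the paralogs *MYC*, *MYCN* and *MYCL*, their partner *MAX*, the repressors *MXD1*, *MXD3*, *MXD4*, *MXI1* and *MNT*, and the related partner *MLX*. These 10 were looked up by symbol among 26941 genes, each represented by the RefSeq transcript with the highest total count over all 18 samples. The set was chosen by measured values, with earlier results of these data known: the *MYC* transcript was lower after *SOX11* siRNA in REH and was not called in the other lines. The effect of the siRNA on *MYC* is therefore described here without a test. REH, 697 and RCH-ACV are established lines of B-cell precursor acute lymphoblastic leukemia, each a single line. In each line 3 samples were nucleofected with siRNA against *SOX11*, a neural and developmental transcription factor, and 3 with a non-specific control siRNA, both at 300 nM, and RNA was taken after 48 h. Sample titles call the first group a knockout, but the treatment was siRNA. The growth medium was shared, and line and any batch of handling cannot be told apart in a comparison between lines.

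MYC binds DNA as a heterodimer with MAX, at E-boxes with the core letters CACGTG, and raises the transcription of genes for ribosome building, nucleotide and polyamine synthesis and glycolysis. The MXD proteins, MXI1 and MNT compete for MAX and bring the SIN3 corepressor with its histone deacetylases to the same sites. MLX is the parallel partner, used by the glucose-sensing factor MLXIP (also called MondoA) and by some of the MXD proteins. In B-cell precursors MYC drives growth and division, and its level falls as cells come to rest.

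A shared DNA site is a feature of this network, though not of it alone, and some of its genes carry that site in their own promoters. RefSeq promoters on GRCh38.p14, 250 bases before to 50 after each start, were matched for 9 of the 10 members. The member without a promoter entry was *MYC* itself, so the searches below do not cover its promoter. The E-box CACGTG, which reads the same on both strands, was present in the promoters of *MXD4*, *MNT* and *MLX*, that is in 3 of 9 genes, against 8.77% of 27305 genes with a promoter. Among 56 genes from a list of known MYC-induced genes with a promoter in the table it was present in 28. Windows around it are shown for those members, with the E-box in capitals, and for the induced genes *ODC1* and *HK2*, whose counts are described further on.
*MXD4* (chr4:2262330-2262359, minus strand): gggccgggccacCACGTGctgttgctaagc
*MNT* (chr17:2401236-2401265, minus strand): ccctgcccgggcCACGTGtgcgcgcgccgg
*MLX* (chr17:42567038-42567067, plus strand): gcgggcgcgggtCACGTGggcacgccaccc
*ODC1* (chr2:10448024-10448053, minus strand): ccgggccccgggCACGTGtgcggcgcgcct
*ODC1* (chr2:10447990-10448019, minus strand): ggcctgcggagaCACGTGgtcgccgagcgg
*HK2* (chr2:74834964-74834993, plus strand): gattgctgcgccCACGTGggagggagcccc
*HK2* (chr2:74835009-74835038, plus strand): ttccggcgagagCACGTGgagagaatcgtg
The E-box began 238 bases before the start of *MXD4*, 193 before that of *MNT* and 50 before that of *MLX*. The core word ACAAAG, bound by many SOX proteins, was found on neither strand of the promoters of the 9 members and in those of 19.0% of genes. The shorter word ACAAT was found in *MXD4*, *MXI1* and *MYCL*, against 31.8% of genes. Promoters of the members held a median of 68.8% G and C (12 promoters, 55.0% to 76.0%), against 58.7% over the table, and base composition alone changes how often such words occur. A match of letters is a description and not a bound site.

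Levels are given in CPM, read counts scaled to library size with edgeR's TMM factors over the 18 samples. The total count per sample lay between 7039594 and 16592492, and the smallest level taken as detected, 3 counts, lay between 0.179 and 0.440 CPM and covers counting error only. *SOX11* lay between 93.0 and 98.6 CPM in REH controls and between 47.7 and 61.4 CPM with *SOX11* siRNA. The ranges were 59.3 to 59.8 and 30.8 to 32.5 CPM in 697, and 124 to 136 and 78.7 to 86.7 CPM in RCH-ACV. The log2 fold changes of *SOX11* in that order of lines were -0.83, -0.91 and -0.67. Of 8 B-cell precursor markers, 7 in REH and 8 in 697 and RCH-ACV had a median of at least 1 CPM, the exception being *VPREB1* in REH. Of 6 T-cell and myeloid markers, 1 in each line reached that level, *MPO* in REH (7.48 to 14.9 CPM) and *CSF1R* in 697 (2.35 to 4.64 CPM) and RCH-ACV (23.1 to 30.4 CPM), and *CD3D* was at 0 in every sample. The summed other-type markers were 8.44 to 15.4 CPM in REH, 2.35 to 4.64 CPM in 697 and 23.6 to 31.0 CPM in RCH-ACV, and their part in the differences between lines was not tested. The *SOX11* siRNA replicate 3 of RCH-ACV weighed heavily on the calls of its line, which numbered 973 with it and 2479 without it.

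**Figure D1:**
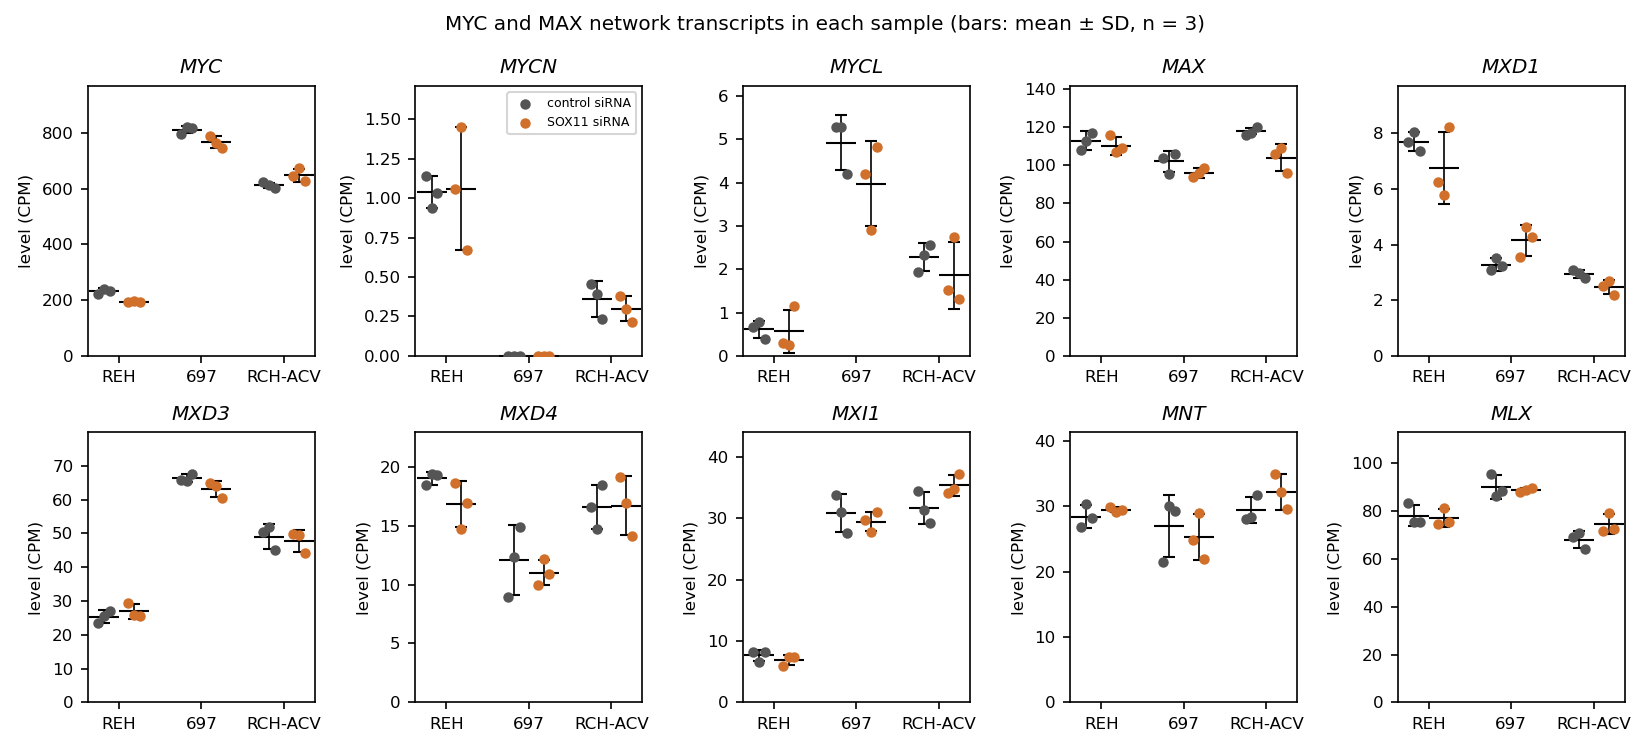
Level of each of the 10 members in CPM (vertical axis, from 0) in every sample of the 3 lines, with grey points for control siRNA, orange points for *SOX11* siRNA, and black bars for the mean ± SD (n = 3). *MYC*, *MYCL* and *MXI1* were lower in REH than in both other lines, as was *MXD3* on the transcript plotted but not on its second transcript, *MXD1* was higher there, and *MYCN* was at 0 in all 6 samples of 697.

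The paralogs were unequal in every line, and *MYC* held by far the most reads. *MYC* (NM_002467, chromosome 8 of hg19 from 128747680 to 128755197, plus strand, 3 exons) stood at 223, 241 and 234 CPM in the REH controls. In the 697 controls it stood at 795, 820 and 817 CPM, and in the RCH-ACV controls at 622, 612 and 601 CPM. The 3 lines did not overlap, and REH was the lowest by a wide margin. *MYC* was 3.51-fold lower in REH than in 697 (log2 fold change -1.81 ± 0.0399 SE, adjusted p = 1.09e-17) and 2.65-fold lower than in RCH-ACV (log2 fold change -1.41 ± 0.0397, adjusted p = 5.16e-16). It was 1.32-fold lower in RCH-ACV than in 697 (log2 fold change -0.40 ± 0.0381, adjusted p = 3.25e-08). These p-values come from edgeR (quasi-likelihood F-test, Benjamini-Hochberg adjustment over all genes tested) on the 9 control samples, and the siRNA samples were not used in them.

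*MYCL* (NM_001033081, chromosome 1, 40361100 to 40367928), the paralog first found in lung cancer, followed the same order of lines at a far lower level. Its controls held 0.665, 0.781 and 0.388 CPM in REH, 5.28, 5.28 and 4.19 CPM in 697, and 1.94, 2.34 and 2.56 CPM in RCH-ACV. The REH values rest on 3 to 10 reads a sample, and the 3 lines did not overlap. The log2 fold change of REH against 697 was -2.92 ± 0.273, that against RCH-ACV -1.81 ± 0.320, and that of RCH-ACV against 697 -1.11 ± 0.218, all past the threshold (adjusted p = 1.43e-08, 5.01e-05 and 0.000226 by edgeR).

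*MYCN* (NM_001293228, chromosome 2, 16080672 to 16087129), the paralog amplified in neuroblastoma, was near the limit of detection. It held 12, 12 and 8 reads in the REH controls, which is 1.14, 0.937 and 1.03 CPM. It held 4, 3 and 2 reads in the RCH-ACV controls and 0 in each of the 6 samples of 697. Set against the highest floor of a 697 control library, 0.440 CPM, the mean of REH was at least 2.36-fold higher. *MYCN* did not pass edgeR's filter on low counts in the fit of the control samples, so no test was made.

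*MAX* (NM_145113, chromosome 14, 65472892 to 65569413, minus strand), the obligate partner, was nearly level across the lines. The controls held 108, 113 and 117 CPM in REH, 104, 95.6 and 106 CPM in 697, and 116, 117 and 120 CPM in RCH-ACV. The RCH-ACV controls were all above those of 697, by a log2 fold change of 0.21 ± 0.0553 (adjusted p = 0.0031, edgeR). The excess of REH over 697, 0.13 ± 0.0547, passed with an adjusted p of 0.0382 but not with DESeq2 (adjusted p = 0.094), nor with no filter on low counts (adjusted p = 0.0594), nor without REH control replicate 2 or 3, 697 control replicate 2 or RCH-ACV control replicate 1 or 2 (adjusted p = 0.0876, 0.137, 0.194, 0.0509 and 0.0514). REH and RCH-ACV differed by -0.08 ± 0.0535 (adjusted p = 0.202). On the opposite strand *FNTB* shares 822 exon bases with *MAX*, and *CHURC1-FNTB* shares 623. Both were lower in RCH-ACV than in 697, by log2 fold changes of -0.26 ± 0.0995 and -0.28 ± 0.0806. Their part in the *MAX* counts was not tested. The gene has 9 transcripts in the tables, whose counts fall into a high set, such as NM_002382 with 646 to 873 reads in 697, and a low set, such as NM_145114 with 68 to 93. Transcripts of a gene repeat the reads of exons they share.

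Since *MYC* varied far more than *MAX*, the ratio of *MYC* to *MAX* differed between lines. Per kilobase of the MANE Select transcript, which is used because the lengths of the RefSeq transcripts counted were not used here, the ratio in controls was 1.12 ± 0.0351 in REH, 4.30 ± 0.286 in 697 and 2.80 ± 0.0902 in RCH-ACV (SD, n = 3). With the length of all protein-coding exons of each gene the ratios were 1.58 ± 0.0503, 6.11 ± 0.407 and 3.99 ± 0.125, in the same order. Levels of RNA per length do not give protein levels.

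**Figure D2:**
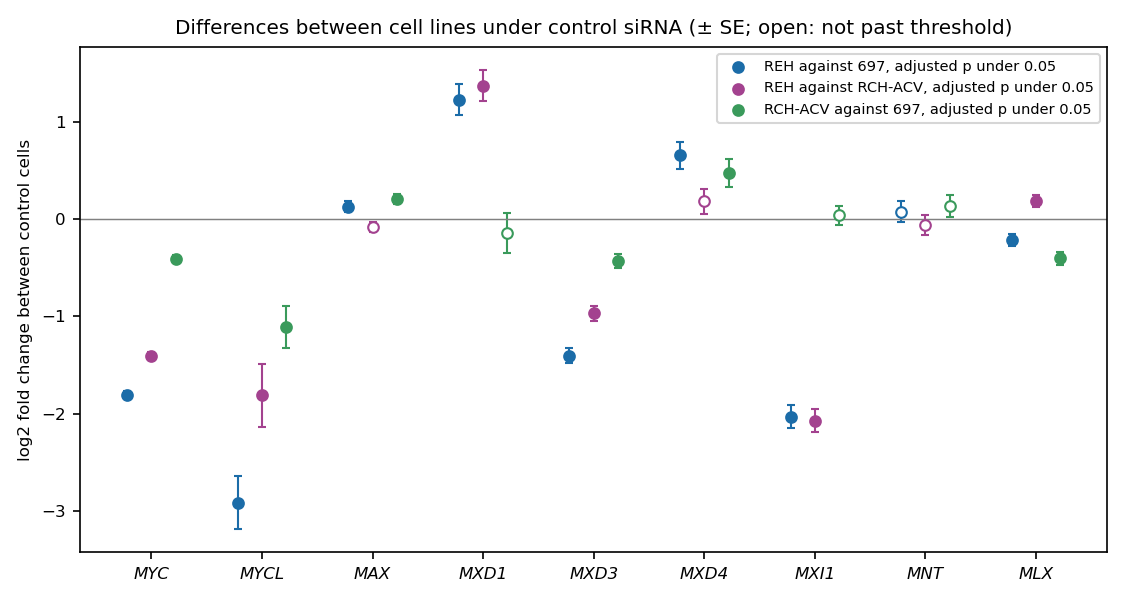
Log2 fold change between lines in control cells (vertical axis, ± SE) for 9 members, with filled points past an adjusted p of 0.05 and open points not; *MYCN* is left out for lack of counts. *MYC*, *MYCL* and *MXI1* reach -1.81, -2.92 and -2.03 for REH against 697, *MXD1* reaches 1.23, and *MAX*, *MNT* and *MLX* lie between -0.40 and 0.21.

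The repressors did not move as a block between lines. *MXI1* (NM_130439, chromosome 10, 111967363 to 112047123) had the widest range among them. Its controls held 8.26, 6.64 and 8.15 CPM in REH, 33.9, 31.0 and 27.7 CPM in 697, and 34.4, 31.4 and 29.3 CPM in RCH-ACV. REH lay below both other lines, which overlapped each other. *MXI1* was 4.09-fold lower in REH than in 697 (log2 fold change -2.03 ± 0.119, adjusted p = 1.87e-11) and 4.21-fold lower than in RCH-ACV (-2.07 ± 0.117, adjusted p = 1.38e-11), while RCH-ACV and 697 differed by 0.04 ± 0.0977 (adjusted p = 0.734, edgeR).

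*MXD1* (NM_001202513, chromosome 2, 70124820 to 70170077), the founding MXD repressor and a gene of resting and maturing cells, had the opposite order. Its controls held 7.69, 8.05 and 7.37 CPM in REH against 3.07, 3.52 and 3.24 CPM in 697 and 3.07, 2.99 and 2.79 CPM in RCH-ACV. All REH controls were above the others, by 2.35-fold over 697 (log2 fold change 1.23 ± 0.162, adjusted p = 1.56e-06) and 2.59-fold over RCH-ACV (1.37 ± 0.161, adjusted p = 3.88e-07), and the other lines differed by -0.14 ± 0.204 (adjusted p = 0.611, edgeR). *SNRNP27*, on the same strand, shares 237 exon bases with *MXD1* and was also higher in REH, by a log2 fold change of 0.54 ± 0.0814 over 697 and 0.26 ± 0.0779 over RCH-ACV.

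*MXD4* (NM_006454, chromosome 4, 2249159 to 2263836) was higher in REH (18.4, 19.4 and 19.3 CPM) than in 697 (8.96, 12.3 and 14.9 CPM), with a log2 fold change of 0.66 ± 0.140 (adjusted p = 0.000348, edgeR). RCH-ACV (16.6, 14.7 and 18.4 CPM) was above 697 by 0.48 ± 0.147 (adjusted p = 0.00892), although the lines overlapped, and without the control siRNA replicate 1 of 697 the difference was 0.29 with an adjusted p of 0.0606. REH and RCH-ACV differed by 0.18 ± 0.129 (adjusted p = 0.209).

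*MNT* (NM_020310, chromosome 17, 2287367 to 2304398), the repressor present in most dividing and resting cells, did not separate the lines. Its controls ranged from 26.8 to 30.3 CPM in REH, 21.5 to 30.1 CPM in 697 and 28.1 to 31.8 CPM in RCH-ACV, and the ranges overlapped. The log2 fold changes of REH against 697, REH against RCH-ACV and RCH-ACV against 697 were 0.08 ± 0.110, -0.06 ± 0.106 and 0.14 ± 0.112 (adjusted p = 0.522, 0.622 and 0.288, edgeR), and the second of these turned to 0.01 when scaled by library size alone. Scaling by library size alone also moved the median of all genes for REH against 697 from 0.0193 to 0.153.

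*MXD3* (chromosome 5, 176728462 to 176739758, minus strand), a repressor found in dividing cells, placed REH on opposite sides of the other lines on its separate transcripts. NM_001142935, the transcript with more reads, held 23.4, 25.7 and 27.0 CPM in the REH controls, 65.8, 65.6 and 67.7 CPM in 697 and 50.3, 51.9 and 45.0 CPM in RCH-ACV. On it REH was lower than 697 by a log2 fold change of -1.40 ± 0.0761 (adjusted p = 5.88e-12) and lower than RCH-ACV by -0.97 ± 0.0778 (adjusted p = 2.3e-09, edgeR). On NM_031300, the second transcript, looked at after the data were seen, REH was instead higher than 697 by 0.38 ± 0.155 (adjusted p = 0.0319) and higher than RCH-ACV by 0.68 ± 0.157 (adjusted p = 0.000816). The excess of 697 over RCH-ACV on the main transcript (log2 fold change -0.43 ± 0.0716 for RCH-ACV against 697) was -0.29 ± 0.172 on the second, with an adjusted p of 0.149.

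The count on NM_001142935 divided by that on NM_031300 was 1.12, 1.02 and 1.10 in the REH controls. It was 5.31, 2.98 and 3.41 in the 697 controls and 3.11, 4.40 and 2.89 in the RCH-ACV controls. REH did not overlap either line, and a two-sided exact permutation test gave p = 0.1, the smallest that 3 samples against 3 allow, for REH against each, and p = 0.6 for 697 against RCH-ACV. With *SOX11* siRNA the ratio was 0.945, 1.01 and 0.944 in REH. It was 3.47, 3.73 and 5.23 in 697 and 3.52, 3.17 and 3.67 in RCH-ACV. The REH values with *SOX11* siRNA all lay below those of the REH controls, while the ranges with and without it overlapped in both other lines, and the ratio was not tested for the siRNA. The *MXD3* locus shares 1148 exon bases with *PRELID1* on the opposite strand and 926 with *RAB24* on the same strand, and whether reads were counted by strand is not stated. *PRELID1*, a mitochondrial lipid-transfer gene, differed between the lines much as NM_001142935 did, with means of 19.4, 78.3 and 62.6 CPM in REH, 697 and RCH-ACV controls and log2 fold changes of -2.04 ± 0.0853 for REH against 697 and -1.71 ± 0.0864 against RCH-ACV. The part of *PRELID1* reads in the *MXD3* counts was not tested, so no order of the lines is given for *MXD3* as a gene.

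**Figure D3:**
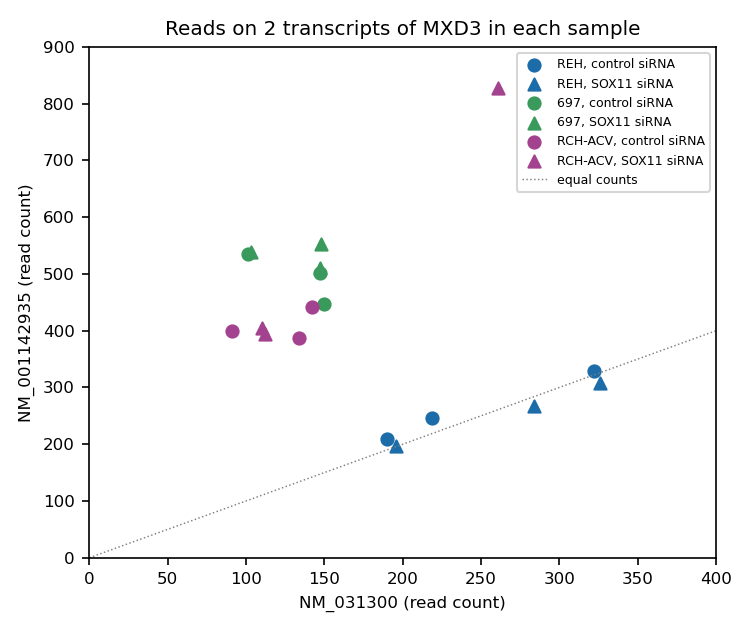
Read counts on NM_001142935 (vertical axis) against those on NM_031300 (horizontal axis) of *MXD3* in each of the 18 samples, with color for the line, circles for control siRNA and triangles for *SOX11* siRNA. REH samples lie along the line of equal counts, with ratios from 0.944 to 1.12, and the samples of 697 and RCH-ACV lie above it, with ratios from 2.89 to 5.31.

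*MLX* (NM_170607, chromosome 17, 40719090 to 40725257), the parallel partner, ranged from 75.4 to 83.1 CPM in the REH controls, 86.2 to 95.5 CPM in 697 and 64.1 to 70.9 CPM in RCH-ACV, with no overlap. The log2 fold change was -0.40 ± 0.0646 for RCH-ACV against 697 (adjusted p = 2.6e-05), -0.22 ± 0.0626 for REH against 697 (adjusted p = 0.00432) and 0.19 ± 0.0637 for REH against RCH-ACV (adjusted p = 0.0141, edgeR). The last of these was lost without REH control replicate 1 (adjusted p = 0.0847) or RCH-ACV control replicate 3 (0.0997). The difference of REH and 697 was -0.08 with an adjusted p of 0.206 when scaled by library size alone. *PSMC3IP*, on the opposite strand with 775 shared exon bases, was also lower in RCH-ACV than in 697, by -0.40 ± 0.0856. Reads of the overlapping pair cannot be told apart without strand.

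Counted over the 9 members tested, 8 passed the threshold between REH and 697 (76.2% of all genes did), 6 between REH and RCH-ACV (73.7%) and 6 between RCH-ACV and 697 (64.2%). Shares of this kind among members were near those of all genes. Per kilobase of the MANE Select transcript, the order of the control means was *MYC*, *MAX*, *MLX*, *MXD3*, *MNT*, *MXD4*, *MXI1*, *MXD1*, *MYCN* and *MYCL* in REH, from 62.5 ± 2.48 CPM per kilobase for *MYC* and 56.1 ± 2.43 for *MAX* to 0.397 ± 0.0387 for *MYCN* and 0.174 ± 0.0573 for *MYCL* (SD, n = 3). In 697 the order began with *MYC* (218 ± 3.56), *MXD3* (62.2 ± 1.06), *MAX* (50.8 ± 2.86) and *MLX* (38.1 ± 2.08). In RCH-ACV it began with *MYC* (164 ± 2.83), *MAX* (58.6 ± 0.862), *MXD3* (46.0 ± 3.38) and *MLX* (28.8 ± 1.49). With the length of all coding exons *MYC* was still at the head, but *MXD3* lay below *MLX* in all 3 lines and *MLX* above *MAX* in REH and 697, so the order of these 3 depends on the length used. From *MNT* downward the order in REH was the same with either length. *MYC* and *MAX* in REH, and *MNT* (5.77 ± 0.360) and *MXD4* (4.91 ± 0.134), differed by less than 3 times the larger SD per kilobase of the MANE Select transcript. The level of *MYC* over the sum of the 5 repressors, each per kilobase of the MANE Select transcript, was 1.64 ± 0.0551 in the REH controls, 2.71 ± 0.0306 in 697 and 2.49 ± 0.0874 in RCH-ACV. The counts on *MXD3*, with their limit, make up the larger part of that sum.

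With *SOX11* siRNA, *MYC* held 193, 198 and 193 CPM in REH, below the 223, 241 and 234 CPM of the controls. In 697 it held 789, 764 and 744 CPM, and in RCH-ACV 646, 672 and 626 CPM. The siRNA samples lay below all controls in REH and 697 and above all controls in RCH-ACV. The log2 fold change was -0.25 ± 0.0394 for REH (-0.28 to -0.23 with each sample left out), -0.085 ± 0.0424 for 697 (-0.11 to -0.06) and 0.085 ± 0.0382 for RCH-ACV (0.06 to 0.11). *MYC* in REH and its absence from the calls in the other lines chose this set of genes, so these are values without a test. Of all genes tested, 4.65% were called in REH, 0.559% in 697 and 7.51% in RCH-ACV.

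**Figure D4:**
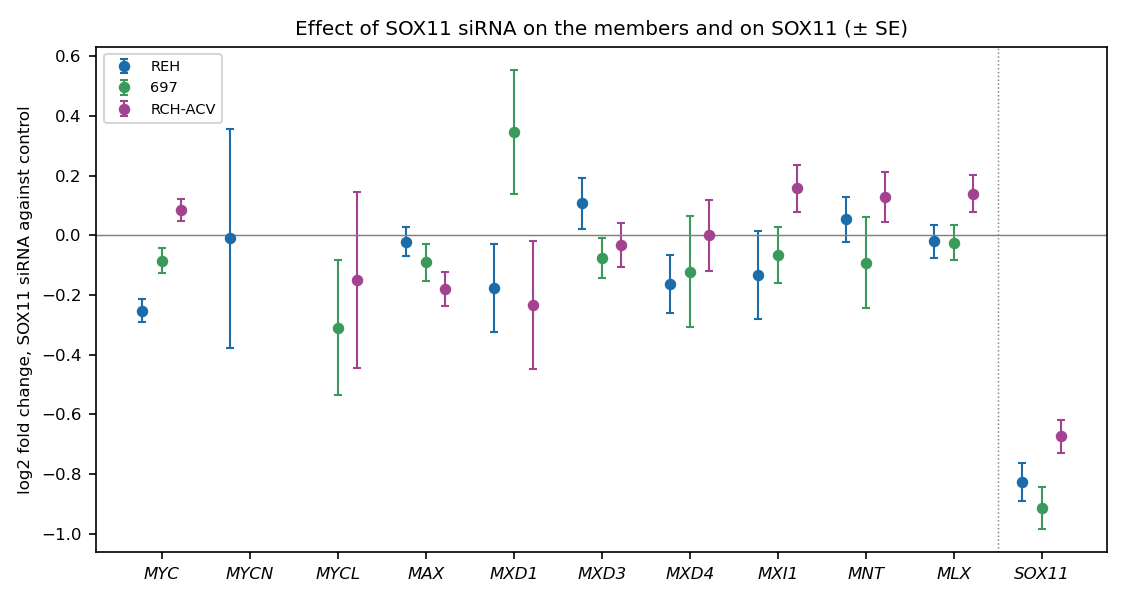
Log2 fold change of *SOX11* siRNA against control siRNA (vertical axis, ± SE) for the 10 members and for *SOX11*, with color for the line; points are missing where a gene did not pass the filter on low counts. *SOX11* lies between -0.91 and -0.67, *MYC* at -0.25 in REH, and the other members between -0.31 and 0.35.

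None of the other members was called for an effect of the siRNA. Of the 9, 8 were tested in each line, since *MYCL* did not pass the filter in REH and *MYCN* did not in 697 and RCH-ACV, and edgeR called 0 in every line, as did DESeq2. At an unadjusted p under 0.05 edgeR counted 0 of 8 in REH and 697 and 2 of 8 in RCH-ACV, against 16.9%, 8.24% and 22.5% of all genes. The 2 were *MAX* and *MLX*.

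*MAX* in RCH-ACV held 106, 109 and 95.7 CPM with *SOX11* siRNA against 116, 117 and 120 CPM in the controls. The groups did not overlap, and the log2 fold change was -0.18 ± 0.0559 (adjusted p = 0.0597, edgeR), which passed with no filter on low counts (adjusted p = 0.0277) and for the transcript with the second highest count (adjusted p = 0.0384). In REH and 697 the log2 fold changes of *MAX* were -0.02 ± 0.0484 and -0.09 ± 0.0609 (adjusted p = 0.883 and 0.814). The difference between lines had an adjusted p of 0.717 in a fit over the 18 samples. In RCH-ACV the overlapping *CHURC1-FNTB* stood at 0.23 ± 0.0681 with the siRNA (adjusted p = 0.0476) and *FNTB* at 0.10 ± 0.0896 (adjusted p = 0.567, edgeR).

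*MLX* in RCH-ACV held 71.5, 79.1 and 72.6 CPM with *SOX11* siRNA against 69.1, 70.9 and 64.1 CPM, all siRNA samples above all controls, with a log2 fold change of 0.14 ± 0.0621 (adjusted p = 0.192). In REH and 697 it was -0.02 in both (standard errors 0.0554 and 0.0588).

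Among the repressors, *MXD1* had the largest log2 fold change in 697, 0.35 ± 0.207, with 3.56, 4.64 and 4.26 CPM against 3.07, 3.52 and 3.24 CPM (adjusted p = 0.767, edgeR). In RCH-ACV it was -0.23 ± 0.214, with 2.52, 2.69 and 2.18 CPM against 3.07, 2.99 and 2.79 CPM (adjusted p = 0.588), and in REH -0.18 ± 0.148 (adjusted p = 0.613). The samples did not overlap in 697 and RCH-ACV, where a sample held 20 to 45 reads. Those of *MXD3* on its main transcript in 697 did not overlap either. How often the groups of any gene separate in this way was not counted. Such a separation is therefore a description only, for *MYC*, *MAX* and *MLX* as well. *MXI1* had log2 fold changes of -0.13 ± 0.148, -0.07 ± 0.0935 and 0.16 ± 0.0787 in REH, 697 and RCH-ACV (adjusted p = 0.724, 0.948 and 0.253). *MXD3*, on its main transcript, had 0.11 ± 0.0844, -0.08 ± 0.0662 and -0.03 ± 0.0738, and *MXD4* had -0.16 ± 0.0968, -0.12 ± 0.186 and 0.00 ± 0.119. *MNT* had 0.05 ± 0.0757, -0.09 ± 0.152 and 0.13 ± 0.0843, and the lowest adjusted p of *MXD3*, *MXD4* and *MNT* was 0.4, for *MNT* in RCH-ACV (edgeR).

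The low paralogs gave little to compare. *MYCN* in REH had a log2 fold change of -0.01 ± 0.367 on 7 to 12 reads a sample. *MYCL* had -0.31 ± 0.225 in 697 (adjusted p = 0.841) and -0.15 ± 0.295 in RCH-ACV (adjusted p = 0.81), and in REH it held 2 to 12 reads a sample. The interaction of siRNA and line over the 18 samples called 0 of the 8 members tested other than *MYC*, with edgeR and DESeq2 alike, 0 at an unadjusted p under 0.05, against 0.734% of all genes called and 10.1% at the unadjusted p. With *SOX11* siRNA the level of *MYC* over the summed repressors per kilobase was 1.35 ± 0.0917 in REH, 2.70 ± 0.0493 in 697 and 2.63 ± 0.0985 in RCH-ACV, which takes in the values of *MYC* that chose the set.

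Genes around the network were read from lists of textbook knowledge, written with earlier results of these data known. Among 69 genes that MYC is known to induce, REH had 5 lower and 0 higher with *SOX11* siRNA (background 2.01% lower and 2.64% higher), and 51 of 69 had a negative log2 fold change against 51.0% of all genes. The median of the list was -0.0555 and that of all genes -0.00224. The 5 were *ODC1*, *NME1*, *CCND2*, *GNL3* and *NOLC1*, of which the last 2 fall outside the rule for named genes. *ODC1*, the rate-limiting enzyme of polyamine synthesis, held 284, 294 and 262 CPM against 321, 328 and 337 CPM, a log2 fold change of -0.23 ± 0.0407 (adjusted p = 0.00114). In 697 and RCH-ACV *ODC1* stood at -0.16 ± 0.0431 and -0.11 ± 0.039 (adjusted p = 0.206 and 0.107, edgeR). Its difference between lines had an adjusted p of 0.738 in the edgeR fit over the 18 samples. A fall particular to REH was therefore not shown, and neither was an equal fall in the 3 lines. *NME1*, a nucleoside diphosphate kinase, held 152, 165 and 153 CPM against 185, 178 and 176 CPM, a log2 fold change of -0.19 ± 0.0426 (adjusted p = 0.00764). In 697 and RCH-ACV *NME1* stood at 0.003 ± 0.0439 and -0.018 ± 0.0424. The difference of its siRNA effect between lines had an adjusted p of 0.256 (edgeR). *CCND2*, the cyclin D2 gene, held 4, 6 and 6 reads against 25, 22 and 10, and its log2 fold change of -1.68 ± 0.381 (adjusted p = 0.00806, edgeR) rests on few reads. Without REH *SOX11* siRNA replicate 1 *NME1* and *CCND2* were not called (adjusted p = 0.0678 and 0.0719), nor was *CCND2* without REH control replicate 1 (0.0546), while *ODC1* kept its call with each sample left out.

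In 697 no gene of the list was called by edgeR or DESeq2 among 68 tested, where edgeR called 0.559% of all genes. An unadjusted p under 0.05 was found for 2, against 8.24% of all genes. In that line 28 of 68 had a negative log2 fold change, against 51.5% of all genes. In RCH-ACV 7 of 68 were higher and 0 lower (background 3.59% and 3.92%), with a list median of 0.0169 beside 0.0049 for all genes. There 25 of 68 had a negative log2 fold change, against 48.5%. *HK2*, a hexokinase, held 177, 182 and 215 CPM with *SOX11* siRNA against 144, 137 and 143 CPM, a log2 fold change of 0.43 ± 0.0612 (adjusted p = 0.000366). *ENO1*, the glycolytic enolase, had 0.25 ± 0.0383 (adjusted p = 0.000661), and *MYBBP1A*, a nucleolar protein gene, 0.26 ± 0.0549 (adjusted p = 0.00713, edgeR). Without the *SOX11* siRNA replicate 3 of RCH-ACV, 13 were higher and 2 lower. *MYBBP1A* was not called without control replicate 1 or 2 of RCH-ACV (adjusted p = 0.0562 and 0.0552). In REH and 697 it stood at -0.054 ± 0.0581 and 0.185 ± 0.0919. The difference of its siRNA effect between lines had an adjusted p of 0.355 (edgeR).

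**Figure D5:**
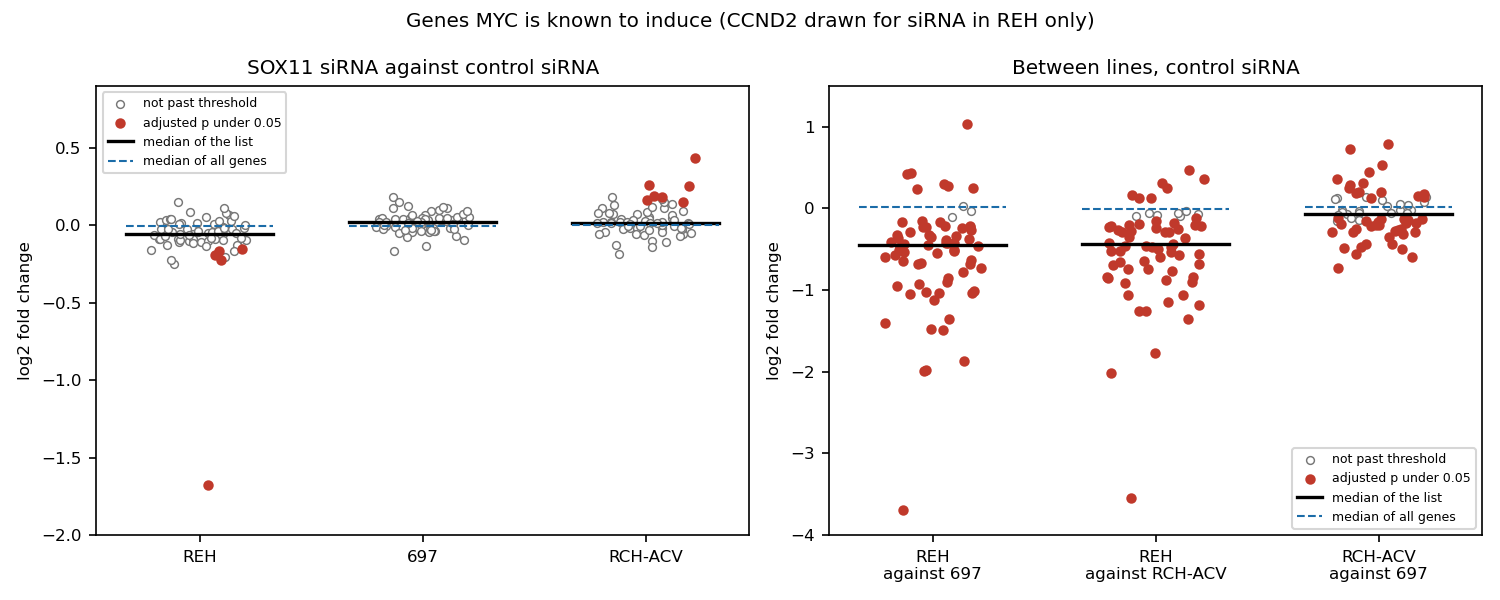
Log2 fold change (vertical axes, scaled separately) of genes known to be induced by *MYC* for *SOX11* siRNA in each line (left) and between lines in control cells (right), with red points past an adjusted p of 0.05, a black line at the list median and a dashed blue line at the median of all genes. Medians were -0.0555, 0.0233 and 0.0169 for the siRNA in REH, 697 and RCH-ACV, and -0.443, -0.435 and -0.0712 between the lines; *CCND2*, at or near 0 reads outside REH, is drawn for the siRNA in REH only.

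Between REH and each of the other lines the list lay below the median of all genes in control cells, and between RCH-ACV and 697 it lay close to it. Of its genes 58 of 69 genes were lower and 8 higher in REH than in 697 (background 36.9% lower and 39.3% higher), with a median log2 fold change of -0.443 against 0.0193 for all genes. Against RCH-ACV 54 were lower and 8 higher in REH (37.6% and 36.1%), with a median of -0.435. RCH-ACV against 697 gave 30 lower and 15 higher (30.9% and 33.3%), with a median of -0.0712 against 0.0126, and 22 lower and 20 higher when scaled by library size alone. Leaving out *CCND2* gave medians of -0.450, -0.445 and -0.0755. *ODC1* was 3.97-fold lower in REH than in 697 (log2 fold change -1.99 ± 0.0411, adjusted p = 4.9e-18) and 2.39-fold lower than in RCH-ACV (-1.26 ± 0.0406, adjusted p = 3.53e-15), and *NME1* was 2.04-fold lower than in 697 (-1.03 ± 0.0439, adjusted p = 1.52e-13, edgeR).

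Of 13 genes that MYC is known to repress, 8, 9 and 11 passed the filter in REH, 697 and RCH-ACV. The 1 call was *NDRG1*, a stress-response gene, in RCH-ACV, where 7.51% of all genes were called. It held 19.8, 22.1 and 18.7 CPM with *SOX11* siRNA against 13.5, 12.5 and 10.9 CPM, a log2 fold change of 0.73 ± 0.111 (adjusted p = 0.000663). In REH and 697 *NDRG1* stood at -0.29 ± 0.273 and 0.10 ± 0.129. The difference of its siRNA effect between lines had an adjusted p of 0.0903 (edgeR). In control cells 11 of the 13 were tested between lines, and 5 were higher and 4 lower in REH than in 697 (background 39.3% and 36.9%). Against RCH-ACV 2 were higher and 6 lower in REH (36.1% and 37.6%). RCH-ACV against 697 gave 6 higher and 2 lower (33.3% and 30.9%). *NDRG1* was 7.20-fold lower in REH than in 697 (log2 fold change -2.85 ± 0.182, adjusted p = 6.05e-11) and 5.11-fold lower than in RCH-ACV (-2.35 ± 0.191, adjusted p = 2.5e-09, edgeR). Among 5 corepressor genes of the MXD and MNT proteins, *HDAC2* was lower in REH (-0.16 ± 0.0351, adjusted p = 0.00678) and in RCH-ACV (-0.21 ± 0.0396, adjusted p = 0.00337), and *HDAC1* was higher in RCH-ACV (0.15 ± 0.0414, adjusted p = 0.0324). Both encode class I histone deacetylases of the SIN3 complex. Of the 5 genes, 1 was called in REH and 2 in RCH-ACV, against 4.65% and 7.51% of all genes. *HDAC2* in REH was not called without *SOX11* siRNA replicate 1 (adjusted p = 0.0633) or control replicate 3 (0.0566), and *HDAC1* was not called without any 1 of the RCH-ACV samples other than *SOX11* siRNA replicate 3 (adjusted p from 0.0871 to 0.155), nor with DESeq2 (0.0829). In 697 *HDAC2* stood at -0.14 ± 0.0472 (adjusted p = 0.403, edgeR). *HDAC1* stood at 0.13 ± 0.0381 in REH (adjusted p = 0.0506) and -0.02 ± 0.0489 in 697 (adjusted p = 0.974, edgeR). The difference of *HDAC1* between lines had an adjusted p of 0.355 in the fit over the 18 samples.

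Among 12 cofactor genes *CDK9*, the kinase of transcription elongation, was higher in REH (0.14 ± 0.0396, adjusted p = 0.0484) and *RUVBL2* higher in RCH-ACV (0.19 ± 0.0532, adjusted p = 0.0416), and neither passed with DESeq2. That is 1 of 12 in each of these lines, against 4.65% and 7.51% of all genes. *CDK9* was not called without any 1 of the REH samples other than *SOX11* siRNA replicate 3 (adjusted p from 0.111 to 0.295), nor *RUVBL2* without *SOX11* siRNA replicate 1 or 2 or control replicate 1 or 2 of RCH-ACV (0.148 to 0.188). *RUVBL2* stood at -0.076 ± 0.0528 in REH and 0.043 ± 0.0647 in 697. The difference of its siRNA effect between lines had an adjusted p of 0.352 (edgeR). In RCH-ACV *CDK9* stood at 0.19 ± 0.0561 (adjusted p = 0.0517) and in 697 at 0.07 ± 0.0678 (adjusted p = 0.89, edgeR). Its difference between lines had an adjusted p of 0.86 in the fit over the 18 samples. Among 8 genes of MYC protein turnover *FBXW7*, the ubiquitin ligase subunit that marks MYC for degradation, was lower in RCH-ACV, with 117, 120 and 140 CPM against 155, 160 and 160 CPM (log2 fold change -0.33 ± 0.0588, adjusted p = 0.00204). It was the 1 gene of the 8 called in RCH-ACV, against 7.51% of all genes. In 697 it stood at -0.285 ± 0.0589 (adjusted p = 0.0822) and in REH at -0.12 ± 0.0625 (adjusted p = 0.318, edgeR). The value in 697 passed with DESeq2 (adjusted p = 0.0333) and with no filter on low counts (adjusted p = 0.0233, edgeR).

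Of 10 other genes of the MAX and MLX branches and related E-box factors, *MLXIP*, the partner of MLX, was higher with *SOX11* siRNA in REH, with 316, 305 and 309 CPM against 262, 283 and 267 CPM (log2 fold change 0.20 ± 0.0369, adjusted p = 0.00139). It was the 1 gene called of 7 tested in REH, against 4.65% of all genes. In 697 and RCH-ACV it stood at -0.07 ± 0.0569 and -0.03 ± 0.0531, and the difference between lines had an adjusted p of 0.129 by edgeR. That difference passed with DESeq2 (adjusted p = 0.0426) and, by edgeR, without the *SOX11* siRNA replicate 3 of RCH-ACV (0.048). Its target genes *TXNIP* and *ARRDC4*, arrestin-family genes that respond to glucose, were not called for the siRNA in any line where they were tested, with *TXNIP* at -0.07 ± 0.0605, 0.13 ± 0.188 and 0.05 ± 0.0684 in REH, 697 and RCH-ACV. *ARRDC4* held 2 to 8 reads a sample in REH, and its controls stood at 5.65 to 8.07 CPM in 697 and at 90 to 105 reads a sample in RCH-ACV.

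Genes whose level moved most like *MYC* from sample to sample were ranked over the 18 samples after subtracting the mean of each line, among 8556 genes. *RASL10B* (r = 0.882), *ADGRL1* (r = 0.843) and *RABEPK* (r = 0.836) had the highest Pearson r of log2 CPM with *MYC*, and *TASL* (r = -0.876), *TMEM263* (r = -0.852) and *RCAN1* (r = -0.84) the lowest. *SOX11* had r = 0.526. Among the members, *MXD4* had r = 0.36, *MLX* 0.231, *MNT* 0.171, *MAX* 0.0518 and *MXD3* -0.0521. The points share their libraries, and since the line mean alone was subtracted each r, that of *SOX11* included, holds the siRNA difference in *MYC* that chose the set and is a description. The highest and lowest of many genes are extreme by choice.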

How the data were processed

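Total RNA from 18 samples was sequenced from stranded mRNA libraries. Per the submitters' notes and the methods, the authors aligned reads to hg19 (STAR 2.5.3a) and used HOMER to count reads per RefSeq transcript. The deposited values are unnormalized read counts, in a table per line. Whether counting used strand is not given in the sources used here. Transcripts were matched to symbols (98% of transcripts, 99% of counts), and the transcript with the highest total was kept for each gene. There were 0 columns of other samples.

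Tests used edgeR 4.0.16 in R 4.3.3 (TMM, filterByExpr, quasi-likelihood F-test, two-sided, Benjamini-Hochberg over all genes, threshold 0.05): each line by itself for the siRNA, the 18 samples for the interaction, and 9 control samples for differences between lines. Standard errors are edgeR's unshrunk log2 coefficient, without its sign, over the square root of F. The log2 fold changes given are those edgeR reports after shrinkage, which can differ from that coefficient at low counts. Totals were 7039594 to 16592492 counts per sample. Replicates are separate samples, biological per the methods. Positions, exons and lengths come from GENCODE lifted to hg19, and promoters from RefSeq on GRCh38.p14. Members and lists were chosen with earlier results of these data known. Named genes were all members, the 3 highest and 3 lowest called genes of each list in each line, *TXNIP* and *ARRDC4*, and the 3 genes most and least like *MYC*. Alternatives were RLE factors, library size alone, DESeq2 1.42.0, no filter, a cutoff of 1 CPM exceeded by 3 or more samples, the transcript with the highest total within the line, a replicate block, each sample left out, and, added after seeing the data, the second transcript. Fits were tested on simulated data, with changes larger than most siRNA effects given here and on well-counted genes only. That test does not cover small effects or genes with few reads. Tables and plots used matplotlib 3.10.9, pandas 2.3.3, scipy 1.17.1 and numpy 2.4.6 in Python 3.11.15. 1 marker is not reported here.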

Additional observations from a re-analysis of the deposited data

Results flagged for a closer look

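For 2 of 69 genes known to be induced by MYC the effect of *SOX11* siRNA differed between the lines, against 0.734% of all genes. The test was the interaction of siRNA and line over the 18 samples (edgeR, adjusted over all genes). *HK2* had an adjusted p of 0.00711, and its log2 fold change was -0.16 ± 0.0551 in REH, 0.03 ± 0.0796 for 697 and 0.43 ± 0.0612 for RCH-ACV. With each sample left out the adjusted p stayed between 0.00226 and 0.0329. *ENO1* had an adjusted p of 0.0372, and log2 fold changes of -0.02 ± 0.0333, 0.05 ± 0.0409 and 0.25 ± 0.0383 in the same order. Its adjusted p ranged from 0.0181 to 0.187 with each sample left out and was 0.0629 with RLE factors, 0.12 with the replicate block and 0.0582 for the second transcript. Groups of 3 samples are too small for the test of outlying samples.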

How the results depend on the processing

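Results that answer a comparison stayed within 1.5 times the main count under 187 of 201 alternatives other than leaving out a sample. With DESeq2 315 genes were called in REH and 577 in RCH-ACV, with 3 induced genes lower in REH and 4 higher in RCH-ACV. With no filter 119 genes were called in 697 and 276 for the interaction, 4 of them on the induced list, and 1 member, *MAX*, in RCH-ACV. For the second transcript 1 member was called in RCH-ACV. The interaction called 1 induced gene with RLE factors, with the block and for the second transcript, against 2. The log2 fold change of *MXD3* turned to 0.38 (REH against 697) and 0.68 (REH against RCH-ACV) on the second transcript, that of *MXD4* in RCH-ACV to -0.004, and that of *MNT* between REH and RCH-ACV to 0.012 with library size alone. *MYCN* in REH turned to 0.011 with DESeq2. The causes were not tested.

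With the replicate number as a block 470 genes were called in REH, 29 in 697, 700 in RCH-ACV and 42 for the interaction, and *MYCN* in REH turned to 0.040. *CDK9* in REH, *HDAC1* and *RUVBL2* in RCH-ACV lost their call with it (adjusted p = 0.101, 0.0617 and 0.0789). Deviations of same-numbered samples had correlations of -0.0589 to 0.0159 (REH), -0.172 to 0.167 (697) and -0.0549 to 0.0306 (RCH-ACV), so the numbers do not pair the samples.

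With each sample left out in turn, 296 to 522 genes were called in REH, 25 to 70 in 697, 386 to 2479 in RCH-ACV and 57 to 179 for the interaction. Induced genes called were 2 to 4 lower in REH, 3 to 13 higher and 0 to 2 lower in RCH-ACV, and 1 to 3 for the interaction. Log2 fold changes for the siRNA changed sign for *MLX* (-0.059 to 0.029), *MYCN* (-0.252 to 0.254) and *MAX* (-0.060 to 0.005) in REH, for *MNT* (-0.239 to 0.012), *MXI1* (-0.135 to 0.005), *MLX* (-0.049 to 0.017) and *MXD4* (-0.307 to 0.066) in 697, and for *MXD4* (-0.079 to 0.087), *MYCL* (-0.690 to 0.041) and *MXD3* (-0.094 to 0.017) in RCH-ACV. Between lines they changed sign for *MNT* (-0.069 to 0.161 for REH against 697, -0.010 to 0.222 for RCH-ACV against 697) and *MXI1* (-0.032 to 0.117 for RCH-ACV against 697). Counting the longest transcript of each gene was not run, since the lengths were not given.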
